A study of Homo sapiens with 16 samples.

Results

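The Krueppel-like factors examined here are 10 zinc finger transcription factors, KLF2, KLF3, KLF4, KLF5, KLF6, KLF9, KLF10, KLF11, KLF13 and KLF16. They were chosen by name, as the non-control probes whose gene name in the array files equals 1 of these symbols, and they are 10 of the 36337 gene names on the array. KLF6 had 3 probes, KLF11 had 2 and each other factor had 1, which gives 13 probes. Expression was measured in RPMI-8226 and MM.1S, established human multiple myeloma cell lines. Cells of each line received the solvent DMSO, 1 µM GSK126, 1 µM UNC0638, or GSK126+UNC0638 at 1 µM each, and RNA was taken after 6 days. GSK126 inhibits EZH2, which methylates lysine 27 of histone H3, and UNC0638 inhibits G9a (EHMT2), which methylates lysine 9. Every group had 2 arrays, 16 in all, and every array carried the RNA of 1 sample in 1 colour. The study calls the replicates biological, and the labels give them only as numbers. If the cultures were not grown apart, p-values measure a technical spread. Each treatment was given at a single dose and read at a single time.

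Between 46.5% and 49.7% of the spots of an RPMI-8226 array were well above background, and between 49.9% and 52.8% of an MM.1S array. A level is the log2 intensity of a probe minus the 75th percentile of its array, so that 0 stands for the spot at that percentile. Levels of the factors were compared between arrays for 1 probe and never between probes. Only the mean levels of the marker lists take different probes together. Only probes that both arrays of some group showed well above background entered the tests of that line. This left 10 of the 13 probes, for 9 of the 10 factors, in RPMI-8226 cells, and 12 probes for all 10 factors in MM.1S cells. A change is a difference of group means on the log2 scale, tested with limma over all probes kept and called where its Benjamini-Hochberg adjusted p was under 0.05. Arrays were also left out in turn, which leaves 1 array in the group. In the comparisons with DMSO in RPMI-8226 cells, and with GSK126 in MM.1S cells, fewer of all probes were then called. A call lost this way is thus not read as particular to its probe. Each line had its own slide and scan for its 8 arrays, and a difference of slides and a difference of lines cannot be told apart. On each slide a treatment filled 1 column and a replicate number 1 row. Neither can be told apart from its place on the slide. These are bulk samples, in which fewer cells of a kind and less RNA per cell cannot be told apart.

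Krueppel-like factors bind GC-rich and CACCC sequences in promoters through 3 zinc fingers of the C2H2 type at the carboxyl end, and their amino-terminal parts recruit coactivators or corepressors. KLF2 keeps lymphocytes quiescent and controls their homing, and in plasma cells it belongs to a circuit with IRF4, on which myeloma cells depend. KLF4 restrains the cell cycle and is used in reprogramming to pluripotency. KLF2 and KLF4 are induced by the kinase ERK5 through MEF2 proteins, KLF3 acts mainly as a repressor through CtBP, and KLF9, KLF10, KLF11, KLF13 and KLF16 recruit the SIN3 corepressor.

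The KLF4 probe is shown because the largest change with treatment among the factors was read from it, and because it lies in the part of the gene that defines the family. Its 60 bases map to chr9:110248049-110248108 on the minus strand of GRCh37, as the array files give it. The capitals mark the codons of 2 cysteines and of the first histidine, which have the spacing of a C2H2 zinc finger in an open reading frame. No other probe of the 13 had this spacing.
KLF4 probe: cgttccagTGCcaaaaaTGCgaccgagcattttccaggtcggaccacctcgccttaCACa

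The promoters of KLF2 and KLF4 are shown because these factors changed most in MM.1S cells, in opposite directions. Each sequence is the 250 bases before the start of the gene in RefSeq (GRCh38.p14), for KLF2 at chr19:16324576-16324825 on the plus strand and for KLF4 at chr9:107489770-107490019 on the minus strand. The capitals mark GC boxes (GGGCGG, on either strand) and, in KLF2, the match to the MEF2 consensus.
KLF2 promoter: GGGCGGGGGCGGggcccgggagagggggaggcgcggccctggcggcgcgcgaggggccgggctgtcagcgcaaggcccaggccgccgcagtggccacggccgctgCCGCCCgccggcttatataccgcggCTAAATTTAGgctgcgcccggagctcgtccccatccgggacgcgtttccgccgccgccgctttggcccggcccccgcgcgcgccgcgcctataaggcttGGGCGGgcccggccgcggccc
KLF4 promoter: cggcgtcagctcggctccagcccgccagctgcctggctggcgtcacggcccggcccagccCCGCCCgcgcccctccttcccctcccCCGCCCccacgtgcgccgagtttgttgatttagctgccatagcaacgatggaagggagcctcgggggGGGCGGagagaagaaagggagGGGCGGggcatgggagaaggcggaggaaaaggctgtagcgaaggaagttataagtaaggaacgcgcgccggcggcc

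Both windows held 4 GC boxes, a motif found on either strand in 42.6% of 35116 RefSeq promoter windows of this length. The KLF2 window also held 1 match to the MEF2 consensus, which ended 110 bases before the start. That motif was in 0.515% of all windows and in none of the other windows of the family. Neither window held the letters CACCC (54.7% of all windows) or CCAAT (32.0%) on either strand. GC content was 80.0% with 41 CpG in KLF2, and 69.2% with 25 CpG in KLF4, against medians of 58.0% and 11 over all windows. RefSeq windows were matched for 8 of the 10 factors, with 2 starts each for KLF5 and KLF11, and 7 of the 8 had a GC box in at least 1 window. KLF3 and KLF10 were not matched. A match is a description of the letters and not a site of binding.

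In DMSO the lines differed first of all in KLF2. Its levels were -0.98 and 0.26 in RPMI-8226 cells and 4.07 and 3.87 in MM.1S cells, a mean 20.1-fold lower in RPMI-8226 (log2 change -4.33, SE 0.58, limma adjusted p = 9.14e-05). The groups were far apart, although the RPMI-8226 arrays lay more than 1 log2 unit from each other. Without RPMI-8226 DMSO replicate 1 the change was -3.71, and without replicate 2 it was -4.95. KLF4 was well above background on all 8 MM.1S arrays and on 0 of 8 RPMI-8226 arrays. In DMSO it was at least 1.43-fold lower in RPMI-8226 cells. It entered this fit through MM.1S cells alone, so its direction was set by the filter and its call is no test of a difference.

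Of the other factors, KLF6, KLF3 and KLF11 were lower in RPMI-8226 cells, and KLF9 and KLF10 were higher. KLF6, an early response factor and tumor suppressor, was 2.33-fold lower by its 3′-most probe A_23_P63798 (adjusted p = 0.000107) and 1.98-fold lower by its 5′-most probe A_33_P3367615 (adjusted p = 0.0148). By A_24_P128308, which lies between them, it was at least 2.34-fold lower, and this probe too entered the fit through MM.1S cells alone. KLF11, a factor induced by TGF-beta, was 2.14-fold lower (adjusted p = 0.000418), and the repressor KLF3 was 2.09-fold lower (adjusted p = 0.0139). KLF10, the TGF-beta inducible early gene, was 1.91-fold higher (adjusted p = 0.000861), and KLF9, a target of glucocorticoid and thyroid hormone receptors, was 1.60-fold higher (adjusted p = 0.00836). KLF5, KLF13 and KLF16 had changes of -0.09, -0.18 and -0.02 and did not pass the test. Altogether, 9 of the 12 probes tested were called, 2 higher and 7 lower, where 57.7% of all 26931 probes were called, 28.4% higher and 29.3% lower. The lower calls include KLF4 and KLF6 A_24_P128308, whose direction was set by the filter. With normexp background correction the KLF4 change was -0.04, with an adjusted p of 0.797, and those of KLF6 A_24_P128308 and A_33_P3367615 were -0.25 and -0.27, with adjusted p of 0.137 and 0.0931. The calls of A_33_P3367615, KLF3 and KLF9 were each lost without at least 2 of the 4 DMSO arrays taken out in turn.

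**Figure D1:**
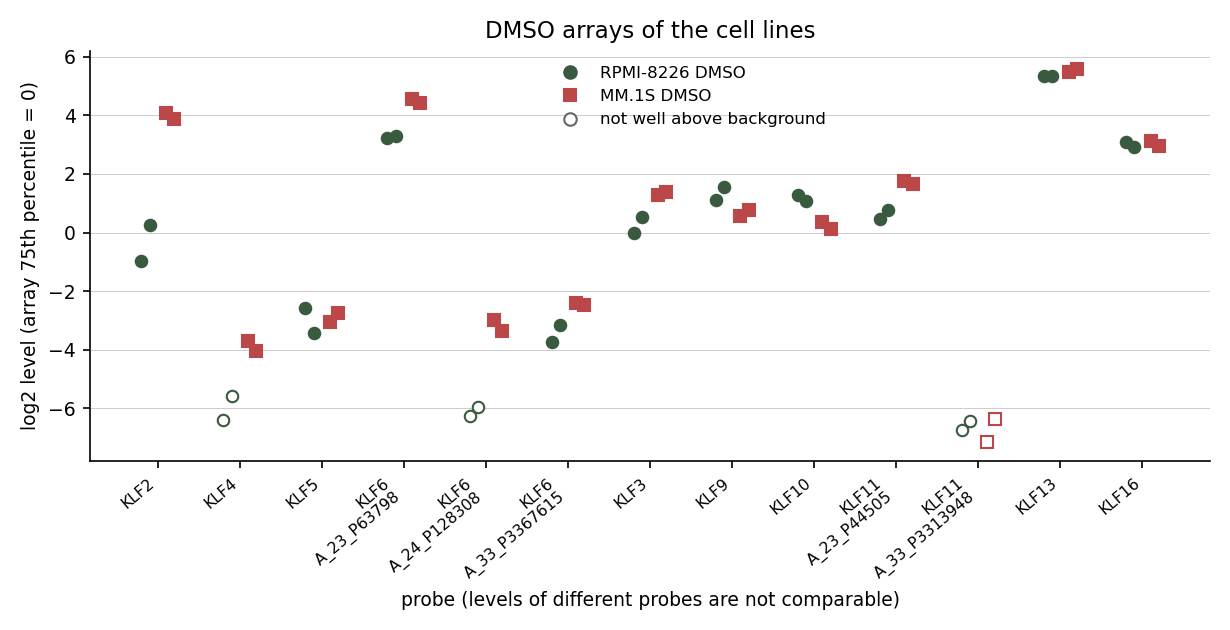
Levels of the 13 probes on the DMSO arrays of RPMI-8226 (circles) and MM.1S cells (squares), with 1 point for each array, the log2 level on the vertical axis and open points for signals not well above background. KLF2 shows the widest gap between the lines, and KLF4 is open in RPMI-8226 and filled in MM.1S cells.

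In MM.1S cells KLF2 fell and KLF4 rose with every treatment. KLF2 had levels of 4.07 and 3.87 in DMSO, 3.19 and 3.37 with GSK126, 2.10 and 1.94 with UNC0638, and 2.17 and 2.09 with GSK126+UNC0638. No treated array reached a DMSO array, and the arrays with UNC0638, alone or combined, lay lowest. KLF2 was 1.61-fold lower with GSK126 (log2 change -0.69, SE 0.12, adjusted p = 0.0274), 3.86-fold lower with UNC0638 (-1.95, SE 0.12, adjusted p = 0.000689) and 3.57-fold lower with GSK126+UNC0638 (-1.83, SE 0.12, adjusted p = 0.000218). The order of the groups was DMSO, GSK126, GSK126+UNC0638 and UNC0638 from high to low. The last neighbours in it differed by 0.11 (95% interval -0.17 to 0.40, adjusted p = 0.539). The call with GSK126 was lost without any of the 4 arrays it rests on, with changes of -0.79 to -0.59, and fewer of all probes were called then. It was also lost with no filter on dim probes (limma adjusted p = 0.0965) or 1 fit over all 16 arrays (0.595). Those settings called 419 and 850 of all probes instead of 1903.

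KLF4 had levels of -3.71 and -4.04 in DMSO, -2.44 and -2.74 with GSK126, -3.31 and -3.02 with UNC0638, and -0.74 and -1.03 with GSK126+UNC0638. The groups did not overlap, and the arrays given both inhibitors stood apart from the rest. KLF4 was 2.43-fold higher with GSK126 (log2 change 1.28, SE 0.19, adjusted p = 0.0192), 1.64-fold higher with UNC0638 (0.71, SE 0.19, adjusted p = 0.0360) and 7.93-fold higher with GSK126+UNC0638 (2.99, SE 0.19, adjusted p = 0.000215). The order was GSK126+UNC0638, GSK126, UNC0638 and DMSO from high to low. Normexp background correction adds an offset to every spot, which shrinks the changes of dim probes most. It kept the calls with GSK126 and GSK126+UNC0638 at 0.48 and 1.58, and left 0.18 with UNC0638 (adjusted p = 0.168). The call with UNC0638 was lost in 8 of 13 alternatives. These include each of the 4 arrays it rests on left out in turn, with changes of 0.55 to 0.87. The call with GSK126 was lost in 3 alternatives, with no filter on dim probes and without DMSO replicate 2 or GSK126 replicate 1.

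**Figure D2:**
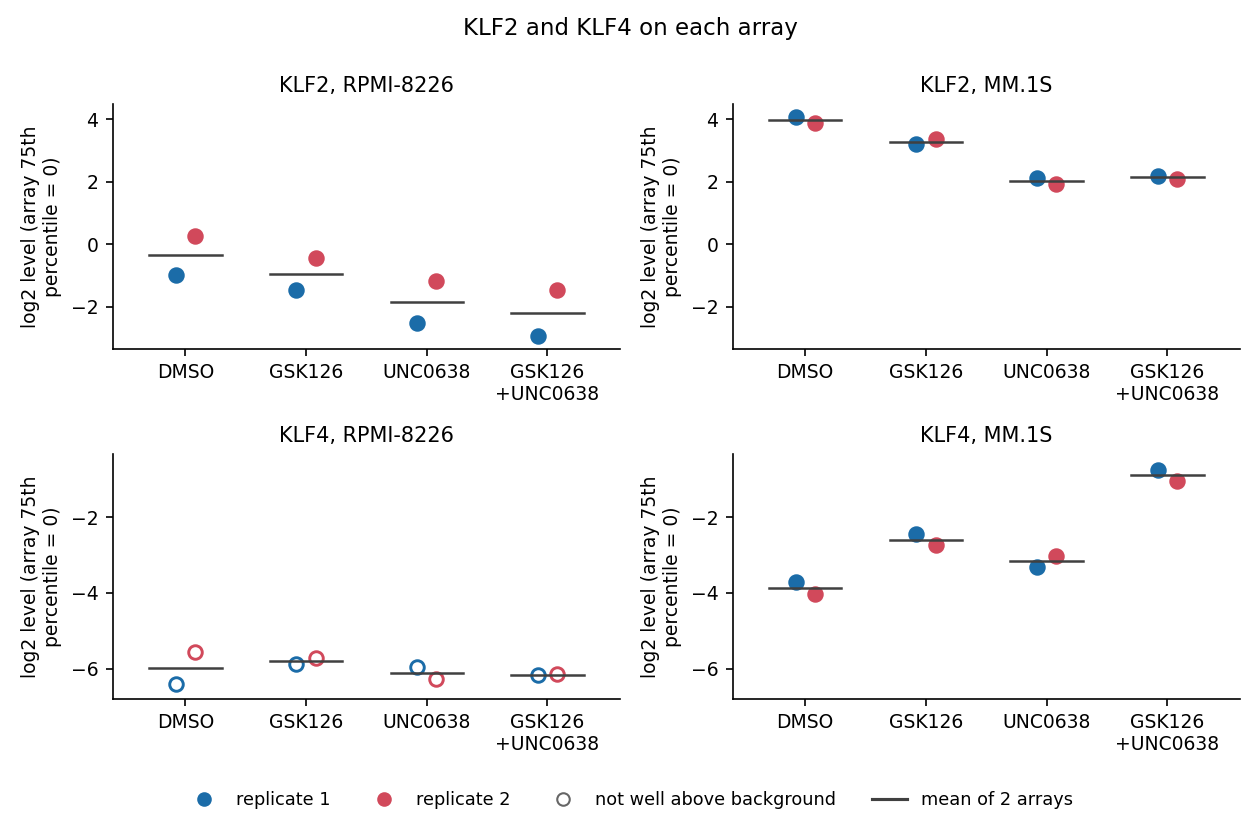
Log2 levels of KLF2 (top) and KLF4 (bottom) in RPMI-8226 (left) and MM.1S cells (right) for each treatment, with 1 point for each array in the colour of its replicate number, the mean of the 2 arrays as a line, and open points where the probe was not well above background. In MM.1S cells KLF2 goes from about 4 in DMSO to about 2 with UNC0638, KLF4 is highest with both inhibitors, and in RPMI-8226 cells replicate 1 of KLF2 is below replicate 2 in all 4 groups.

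In RPMI-8226 cells KLF2 had levels of -0.98 and 0.26 in DMSO, -1.47 and -0.46 with GSK126, -2.53 and -1.18 with UNC0638, and -2.95 and -1.48 with GSK126+UNC0638. Replicate 1 was the lower array in every group, by more than the mean change with GSK126, and only the groups given UNC0638 lay below both DMSO arrays. The changes were -0.61 with GSK126 (SE 0.71, 95% interval -2.31 to 1.09, adjusted p = 0.801), -1.50 with UNC0638 (-3.20 to 0.21, adjusted p = 0.60) and -1.85 with GSK126+UNC0638 (-3.56 to -0.15, adjusted p = 0.134), and none was called. Taken between arrays of the same number, the differences were -0.49 and -0.72 with GSK126, -1.55 and -1.44 with UNC0638, and -1.97 and -1.74 with GSK126+UNC0638. Same-numbered RPMI-8226 arrays deviated together over all probes. They also shared a row of the slide, which cannot be told apart from a shared culture. With the replicate number as a block the SE became 0.15. KLF2 then passed the test with UNC0638 (adjusted p = 0.0127, where 1.81% of all probes were called) and with GSK126+UNC0638 (95% interval -2.23 to -1.48, adjusted p = 0.00125, where 20.5% were called). The KLF2 probe was spotted 10 times on each array, and the SD of its spots was between 0.0376 and 0.286 on the log2 scale. Without DMSO replicate 2 the change with GSK126 was 0.011.

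KLF4 gave no measured change in RPMI-8226 cells, since it was well above background on none of the 8 arrays, where its levels lay between -6.39 and -5.57. KLF6 was the factor called there without the block. Its 3′-most probe had levels of 3.24 and 3.29 in DMSO, 3.74 and 3.83 with GSK126, 3.46 and 3.61 with UNC0638, and 4.60 and 4.01 with GSK126+UNC0638. All treated arrays were above the DMSO arrays, and the pair given both inhibitors was the highest and the widest. The rise with GSK126+UNC0638 was 2.06-fold (log2 change 1.04, SE 0.21, adjusted p = 0.0263). It was lost without DMSO replicate 1 (adjusted p = 0.0957), DMSO replicate 2 (0.0879) or GSK126+UNC0638 replicate 1, where the change was 0.75 (0.0936). The probe A_24_P128308 was at least 1.22-fold higher with GSK126+UNC0638, was above background on 1 of the 2 arrays of that group and on no other RPMI-8226 array, and was not tested. The 5′-most probe changed by 0.26 and was not called.

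In MM.1S cells the 3′-most KLF6 probe had levels of 4.55 and 4.42 in DMSO, 4.63 and 4.56 with GSK126, 4.79 and 4.76 with UNC0638, and 4.96 and 4.83 with GSK126+UNC0638. The arrays of the groups did not overlap with DMSO, and the differences were small. The change with UNC0638 was 0.29 and was not called (limma adjusted p = 0.0563), but several of the alternatives called it. KLF6 was 1.33-fold higher with GSK126+UNC0638 by this probe (log2 change 0.41, SE 0.09, adjusted p = 0.0102). The other probes, at 0.19 (adjusted p = 0.595) and 0.28 (adjusted p = 0.227), were not called, so the 3 probes of the gene differed in their calls. Quantile normalization gave 0.88 for the called probe. Its call was lost without DMSO replicate 2 (adjusted p = 0.0556) and in 1 fit over all 16 arrays (0.0665).

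KLF9 fell in MM.1S cells with UNC0638 alone. Its levels were 0.56 and 0.77 in DMSO, 0.57 and 0.59 with GSK126, -0.32 and -0.26 with UNC0638, and 0.67 and 0.74 with GSK126+UNC0638. The UNC0638 arrays stood below all others, and the arrays given both inhibitors lay between the DMSO arrays. KLF9 was 1.94-fold lower with UNC0638 (log2 change -0.95, SE 0.10, adjusted p = 0.00255), and its change with GSK126+UNC0638 was 0.04 (95% interval -0.19 to 0.27, adjusted p = 0.742). In RPMI-8226 cells its levels were 1.12 and 1.55 in DMSO, 1.44 and 1.85 with GSK126, 1.07 and 1.33 with UNC0638, and 1.55 and 1.78 with GSK126+UNC0638. Each treated group overlapped the DMSO arrays, and none was called.

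KLF16, a repressor with a short SIN3-binding region, had levels in MM.1S cells of 3.11 and 2.94 in DMSO, 2.76 and 2.78 with GSK126, 2.86 and 2.88 with UNC0638, and 2.47 and 2.48 with GSK126+UNC0638. All treated arrays were below the DMSO arrays, and the pair given both inhibitors was lowest. KLF16 was 1.46-fold lower with GSK126+UNC0638 (log2 change -0.55, SE 0.08, adjusted p = 0.00276). In RPMI-8226 cells its levels were 3.10 and 2.91 in DMSO, 3.75 and 2.96 with GSK126, 2.98 and 2.90 with UNC0638, and 2.84 and 2.90 with GSK126+UNC0638, and none was called. The RPMI-8226 arrays given GSK126 stood farther apart than any other pair of this probe.

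KLF5, which promotes proliferation in epithelia, had levels in MM.1S cells of -3.06 and -2.76 in DMSO, -2.34 and -2.63 with GSK126, -2.64 and -2.74 with UNC0638, and -2.49 and -2.11 with GSK126+UNC0638. The treated arrays all lay above the DMSO arrays, closely in the case of UNC0638. KLF5 was 1.53-fold higher with GSK126+UNC0638 (log2 change 0.61, SE 0.18, adjusted p = 0.0292). The call was lost without DMSO replicate 1 (adjusted p = 0.139) or GSK126+UNC0638 replicate 2 (0.134) and under quantile normalization, which gave 0.42, and the change was 0.33 with normexp. In RPMI-8226 cells its levels were -2.56 and -3.43 in DMSO, -2.73 and -2.78 with GSK126, -3.15 and -2.76 with UNC0638, and -2.05 and -2.45 with GSK126+UNC0638. Only the last group was above both DMSO arrays, and its change of 0.75 was not called (adjusted p = 0.155).

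**Figure D3:**
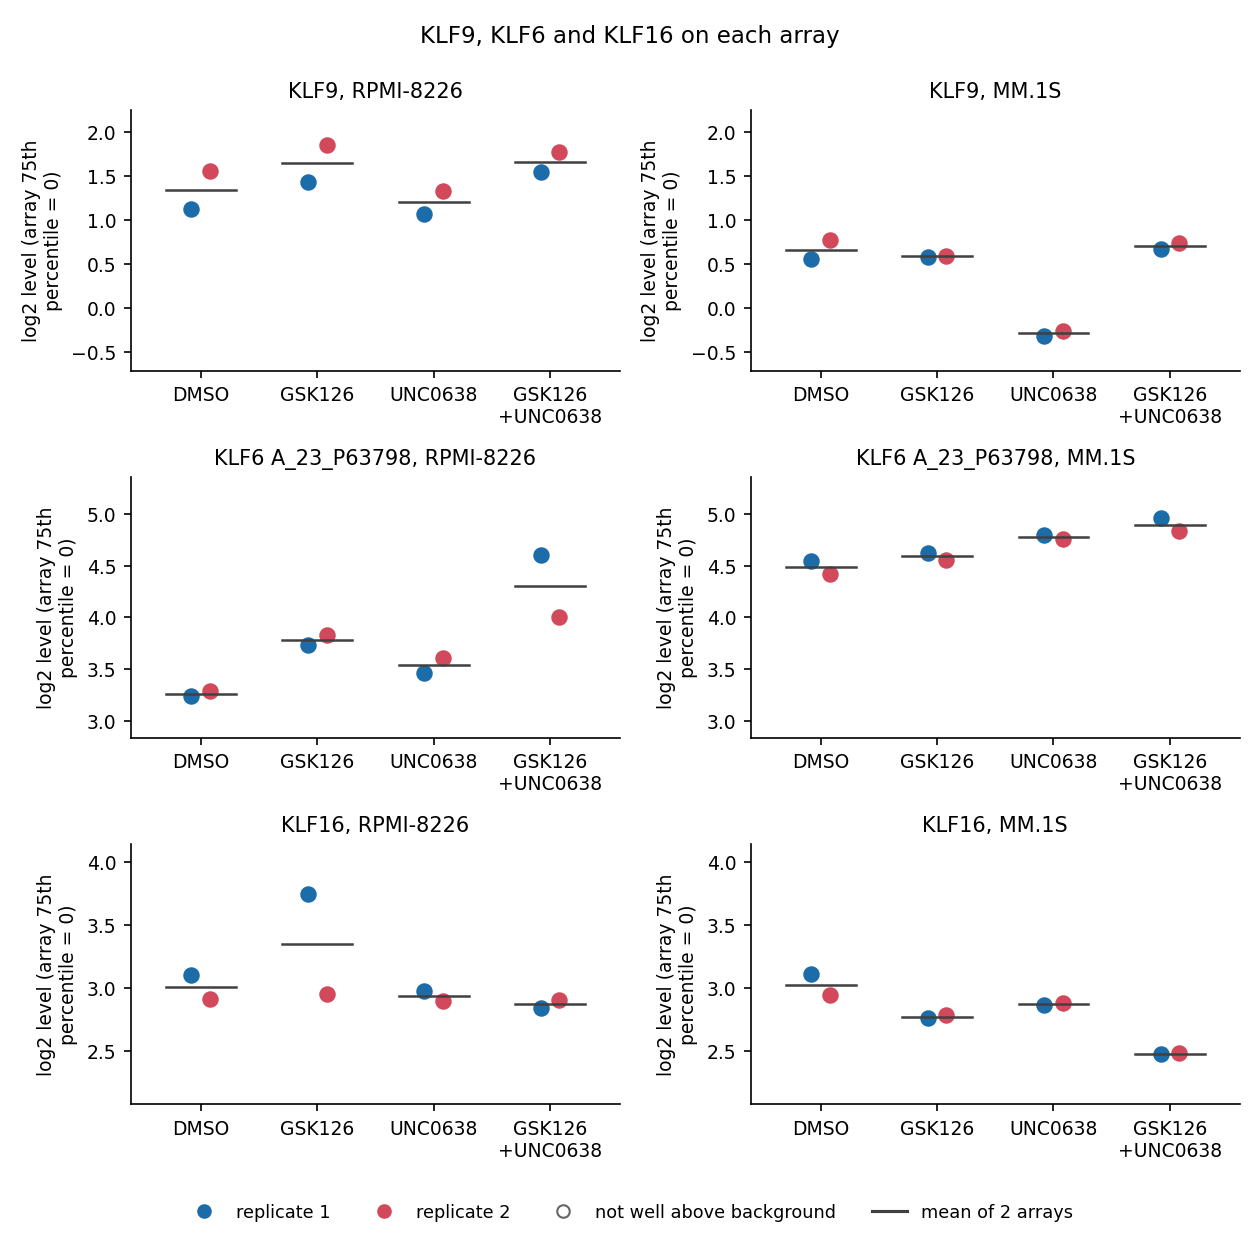
Log2 levels of KLF9, KLF6 (probe A_23_P63798) and KLF16 from top to bottom, drawn as for KLF2 and KLF4, with RPMI-8226 on the left and MM.1S cells on the right. In MM.1S cells KLF9 is low on the UNC0638 arrays alone, at -0.32 and -0.26, and KLF16 is lowest and KLF6 highest with both inhibitors.

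The other factors were not called against DMSO in either line. Over the 8 arrays of RPMI-8226 cells the levels of KLF3 lay between -0.03 and 0.91, of KLF10 between 0.83 and 1.27, of KLF11 (A_23_P44505) between 0.46 and 1.02, and of KLF13, a regulator of RANTES expression in T cells, between 5.01 and 5.35. Over the 8 arrays of MM.1S cells they lay between 0.93 and 1.58, 0.12 and 0.76, 1.55 and 1.90, and 5.35 and 5.67. The 5′-most KLF6 probe lay between -3.73 and -2.56 in RPMI-8226 and between -2.48 and -1.82 in MM.1S cells, and A_24_P128308 between -6.42 and -3.66, and -3.52 and -2.64. The other KLF11 probe, A_33_P3313948, was above background on no array and has no measured change. With GSK126+UNC0638 KLF13 moved by -0.01 and KLF3 by 0.01 in MM.1S cells, the smallest changes of the family there, while KLF13 changed by 0.49 under quantile normalization and was then called (adjusted p = 0.00388).

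The calls against DMSO are set here beside those over all probes. In RPMI-8226 cells 0 of 10 probes were called with GSK126 (0.599% of all 23199 probes) and 0 of 10 with UNC0638 (0.634%), and limma's unadjusted p was under 0.05 for 1 and 0 of them. With the replicate block 1 of 10 was called with UNC0638, KLF2, where 1.81% of all probes were. With GSK126+UNC0638 it was 1 of 10, higher, where 12.4% of all probes were called, 7.2% higher and 5.17% lower, and with the block 2 of 10, where 20.5% were. In MM.1S cells 2 of 12 probes were called with GSK126, 1 higher and 1 lower (7.58% of all 25102 probes, 5.19% higher and 2.39% lower). With UNC0638 3 of 12 were called, 1 higher and 2 lower (29.3%, with 12.8% higher and 16.5% lower). With GSK126+UNC0638 5 of 12 were called, 3 higher and 2 lower (53.9%, with 22.2% higher and 31.7% lower). The median change of the family with GSK126+UNC0638 was 0.25 in RPMI-8226 and 0.13 in MM.1S cells, beside -0.13 and -0.12 over all probes. With the percentile taken over detected probes alone, the all-probe median moved by 0.13 in RPMI-8226 and 0.19 in MM.1S cells, and the share of calls that were higher moved from 58.2% to 75.2% and from 41.2% to 58.0%.

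**Figure D4:**
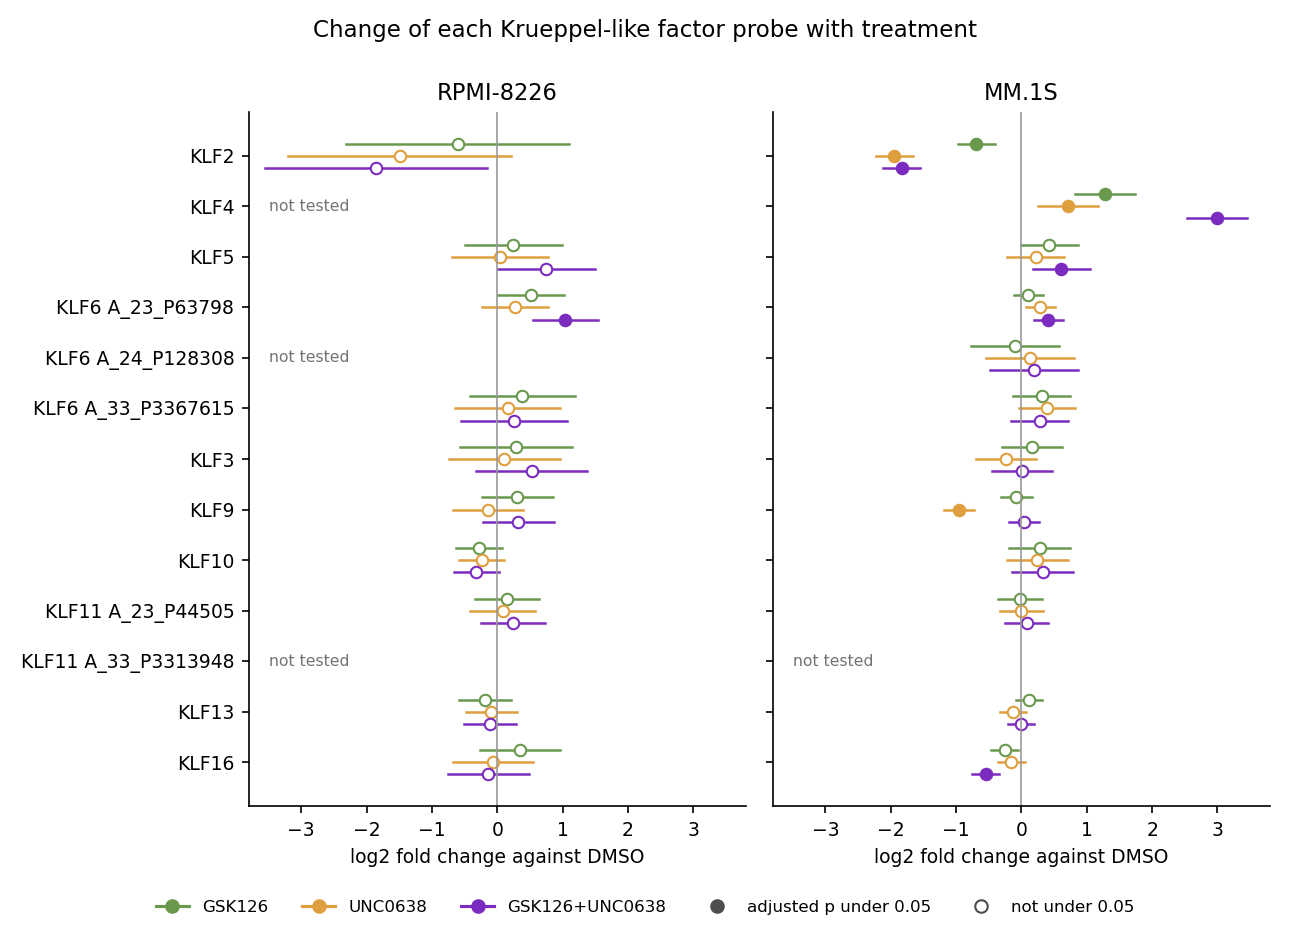
Log2 fold change against DMSO of each of the 13 probes in RPMI-8226 (left) and MM.1S cells (right), with a colour for each treatment, 95% intervals as lines, and filled points where the adjusted p was under 0.05. KLF2 and KLF4 lie farthest from 0 in MM.1S cells, on opposite sides, and the intervals of KLF2 are widest in RPMI-8226 cells.

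The combination was also set against each inhibitor alone. In MM.1S cells KLF4 was 3.26-fold higher with GSK126+UNC0638 than with GSK126 (log2 change 1.71, adjusted p = 0.00242) and 4.85-fold higher than with UNC0638 (2.28, adjusted p = 0.00687), and with normexp these changes were 1.10 and 1.4, both called. KLF2 was 2.21-fold lower than with GSK126 (-1.15, adjusted p = 0.0021). KLF9 was 1.99-fold higher than with UNC0638 (0.99, adjusted p = 0.00838), a call lost without UNC0638 replicate 1 (0.0548) or GSK126+UNC0638 replicate 2 (0.0553). KLF16 was lower than with either agent, by -0.29 against GSK126 (adjusted p = 0.0381) and -0.39 against UNC0638 (adjusted p = 0.0376), and KLF6 was higher than with GSK126, by 0.31 (adjusted p = 0.0417). These KLF6 and KLF16 calls were each lost without any of their 4 arrays. The calls were 4 of 12 probes against GSK126, 2 higher and 2 lower (37.1% of all probes, with 15.1% higher and 22% lower), and 3 of 12 against UNC0638, 2 higher and 1 lower (13.5%, with 6.03% higher and 7.43% lower). In RPMI-8226 cells 0 of 10 were called against GSK126 (2.55% of all probes) and 0 of 10 against UNC0638 (3.39%), with an unadjusted limma p under 0.05 for 1 in each. With the replicate block KLF2 was lower than with GSK126 by -1.25 (SE 0.15, adjusted p = 0.0105, where 5.5% of all probes were called).

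The sum of the single-agent changes was compared with the combined change on the log2 scale. For KLF2 in MM.1S cells the sum was -2.64 and the combined change -1.83, a departure of 0.80 (SE 0.17). For KLF4 the sum was 1.99 and the combined change 2.99, a departure of 1.00 (SE 0.27). For KLF9 the sum was -1.03 and the combined change 0.04, a departure of 1.07 (SE 0.13). The KLF4 rise was thus above the sum and the KLF2 fall short of it, but after adjustment over all probes limma gave p of 0.357, 0.380 and 0.232, and 0 of 12 probes were called. Over all MM.1S probes 0% were called although 2457 had an unadjusted p under 0.05, among them these 3. With normexp KLF4 and KLF9 passed the test, at 0.93 (adjusted p = 0.0356) and 0.92 (adjusted p = 0.0337). Normexp called other probes as well, and 83.9% of all its calls were higher, as these were. The share of all probes it called is not given, so these 2 calls cannot be set beside it. In RPMI-8226 cells 0 of 10 were called, 0 of them with an unadjusted limma p under 0.05, and 0.164% of all probes were called.

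**Figure D5:**
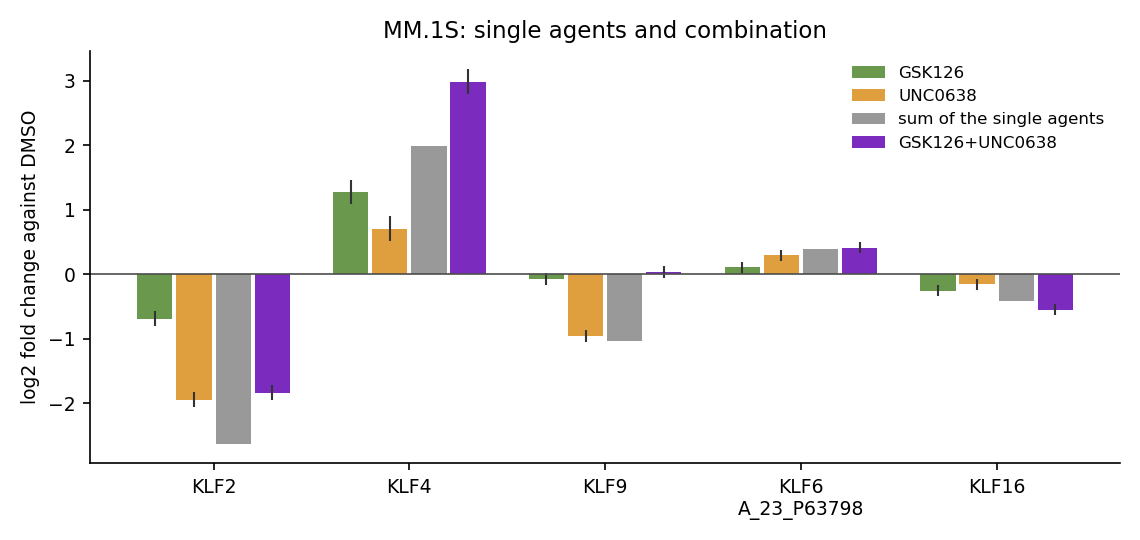
Log2 fold changes against DMSO in MM.1S cells for KLF2, KLF4, KLF9, KLF6 (A_23_P63798) and KLF16, as bars from 0 for GSK126, UNC0638, the sum of the single agents and GSK126+UNC0638, with the SE as error bars on the measured changes. The combination bar of KLF4 passes the sum, 2.99 beside 1.99, that of KLF2 stays short of it, and that of KLF9 is near 0.

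Whether the lines responded differently was tested in 1 fit over the 16 arrays, as the change in RPMI-8226 minus the change in MM.1S cells. With GSK126+UNC0638 1 of 12 probes was called, KLF4, where 13.3% of all probes were. KLF4 entered this fit through MM.1S cells alone and was above background on no RPMI-8226 array, so this is no test of a difference in response and no size is given. KLF2 differed by -0.02 (95% interval -1.83 to 1.79, adjusted p = 0.990), and with the replicate block the interval was -0.46 to 0.42 (adjusted p = 0.953). With GSK126 0 of 12 were called (0.783% of all probes), with an unadjusted limma p under 0.05 for 2, KLF4, with the same limit, and KLF10 at -0.56. With UNC0638 0 of 12 were called (2.89% of all probes), with an unadjusted limma p under 0.05 for 2, KLF4 again and KLF9 at 0.82. With the replicate block the KLF9 difference passed the test (adjusted p = 0.0172, where 5.42% of all probes were called). The block in this fit pairs the arrays of both lines, although the numbers were not taken to pair them in MM.1S cells.

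Genes that act with these factors were described from lists by role, for GSK126+UNC0638 against DMSO. A gene or marker given as at least a fold higher or lower was above background on no array of the lower group. Its direction was thus set by the filter, and no p-value is given for it. It is still counted among the calls. Over all genes, with 1 probe each, the median change was -0.12 in RPMI-8226 and -0.13 in MM.1S cells. Of all probes 7.2% were called higher and 5.17% lower in RPMI-8226 cells, and 22.2% and 31.7% in MM.1S cells. These shares are over probes, while each count that follows takes the brightest probe of a gene. No share of genes called was computed, so the shares are only a rough guide to the counts. Among the inputs of ERK5 and FOXO to KLF2 and KLF4, 2 of 10 genes rose and 0 fell in RPMI-8226 cells (median 0.38), and 5 of 10 rose and 2 fell in MM.1S cells (median 0.14). MEF2C, a transcription factor activated by ERK5, rose by 1.38 (adjusted p = 0.0106) and 0.33 (adjusted p = 0.0183). MAP3K2, the kinase at the head of the ERK5 cascade, rose by 0.57 (adjusted p = 0.0495) and 0.30 (adjusted p = 0.0463). FOXO1, which induces KLF2 in lymphocytes, fell by 0.61 in MM.1S cells (adjusted p = 0.0123), where FOXO3 rose by 0.47 (adjusted p = 0.0137).

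IRF4, MYC and PRDM1 were listed because the study names them with KLF2 from these same samples, so their direction is not independent evidence. Besides the arrays, the study reports by qRT-PCR that these genes and KLF2 fell with both inhibitors in myeloma cells. It reports falls also with another pair of inhibitors of the same enzymes. On the arrays IRF4, MYC and PRDM1 all fell in MM.1S cells and 1 of 3 fell in RPMI-8226 cells. IRF4, the master regulator of plasma cells, fell by 1.70 in RPMI-8226 (adjusted p = 0.00316) and 1.19 in MM.1S (adjusted p = 0.000734). MYC fell by 1.71 in MM.1S cells (adjusted p = 0.000281) and changed by -0.60 in RPMI-8226 cells (adjusted p = 0.0799). PRDM1, which encodes Blimp-1, fell by 0.71 in MM.1S cells (adjusted p = 0.00287) and changed by -0.39 in RPMI-8226 cells (adjusted p = 0.257). With UNC0638 alone in MM.1S cells all 3 also fell, IRF4 by 0.70 (adjusted p = 0.0107), MYC by 1.15 (adjusted p = 0.00287) and PRDM1 by 0.40 (adjusted p = 0.0399).

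Of 4 genes known as targets that KLF2 activates, 2 of 4 measured rose and 0 fell in RPMI-8226 cells (median 0.58), and 0 of 2 measured rose and 1 fell in MM.1S cells (median -0.34). S1PR1, the receptor for lymphocyte egress, was at least 6.46-fold higher in RPMI-8226 cells, where no DMSO array was above background. THBD, thrombomodulin, rose there by 1.24 (adjusted p = 0.0180), and NOS3, the endothelial nitric oxide synthase, fell by 0.47 in MM.1S cells (adjusted p = 0.0282).

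Of 7 cell cycle targets of KLF4 and KLF6, 0 were called in RPMI-8226 cells (median 0.08), and 1 rose and 5 fell in MM.1S cells (median -0.44), where 31.7% of all probes fell. The mitotic cyclin CCNB1 fell by 1.05 (adjusted p = 0.000467), the G1/S cyclin CCNE1 by 0.84 (adjusted p = 0.00484) and ODC1, of polyamine synthesis, by 0.53 (adjusted p = 0.0102), while the apoptosis gene BAX rose by 0.60 (adjusted p = 0.00728). In the TGF-beta list, whose pathway induces KLF10 and KLF11, 4 of 17 measured genes rose and 1 fell in RPMI-8226 cells (median 0.29), and 10 of 16 rose and 1 fell in MM.1S cells (median 0.51), beside 7.2% and 22.2% of all probes that rose in these lines. ID3 rose by 2.13 (adjusted p = 0.00197) and 2.39 (adjusted p = 0.000607), and ID1 by 1.69 (adjusted p = 0.0115) and 2.01 (adjusted p = 0.00335), both inhibitors of basic helix-loop-helix factors. The receptors TGFBR1 and TGFBR2 rose by 1.45 (adjusted p = 0.00385) and 0.74 (adjusted p = 0.0330) in RPMI-8226 cells, and by 0.82 (adjusted p = 0.0309) and 1.76 (adjusted p = 0.000497) in MM.1S cells. KLF10 and KLF11 were not called in either line.

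Among corepressors that bind the factors, 1 of 11 genes rose and 0 fell in RPMI-8226 cells (median -0.18), and 3 rose and 4 fell in MM.1S cells (median -0.09). SAP18, a subunit of the SIN3 complex, rose by 0.71 (adjusted p = 0.0426) and 0.37 (adjusted p = 0.0132). In MM.1S cells the KLF3 partner CTBP2 rose by 0.91 (adjusted p = 0.00455), and the SIN3 subunits SAP30 and RBBP4 fell by 0.73 (adjusted p = 0.000889) and 0.52 (adjusted p = 0.0166). Of 6 coactivators and ubiquitin ligases, 0 were called in RPMI-8226 cells (median 0.08), and 3 rose and 1 fell in MM.1S cells (median 0.29). The acetyltransferases KAT2B and EP300 rose by 0.68 (adjusted p = 0.00430) and 0.54 (adjusted p = 0.00404), the ubiquitin ligase subunit FBXW7 rose by 0.36 (adjusted p = 0.0277), and the acetyltransferase KAT2A fell by 0.97 (adjusted p = 0.000754).

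Of the rest of the family and the related SP factors, 2 of 12 measured genes rose and 0 fell in RPMI-8226 cells (median -0.13), and 3 of 15 rose and 5 fell in MM.1S cells (median -0.12). KLF8, a repressor of the KLF3 branch, was at least 4.49-fold higher in RPMI-8226 cells and rose by 0.88 in MM.1S cells (adjusted p = 0.0220). KLF12, of the same branch, rose by 1.19 (adjusted p = 0.0415) and 0.52 (adjusted p = 0.00265). The erythroid factor KLF1 and the osteoblast factor SP7 fell in MM.1S cells by 0.77 (adjusted p = 0.00378) and 0.88 (adjusted p = 0.0288).

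Immediate early genes, which like KLF2, KLF4, KLF6 and KLF10 respond fast to stimuli, rose in 4 of 17 and fell in 0 in RPMI-8226 cells (median 0.29), and rose in 4 of 15 and fell in 5 in MM.1S cells (median -0.27). With UNC0638 alone in MM.1S cells 0 of 15 rose and 8 fell (median -1.02), where 12.8% of all probes rose and 16.5% fell and the median over all genes was -0.07. With both inhibitors EGR2 was at least 1.35-fold higher in RPMI-8226 and rose by 3.0 in MM.1S cells (adjusted p = 0.0371), and JUN rose by 2.08 in RPMI-8226 cells (adjusted p = 0.00709). IER3 rose by 1.16 in RPMI-8226 (adjusted p = 0.00713) and fell by 0.60 in MM.1S cells (adjusted p = 0.0115), where EGR1 fell by 1.70 (adjusted p = 0.0413). Of the enzymes the inhibitors bind, EZH2 changed by -0.30 (adjusted p = 0.198) and EHMT2 by -0.53 (adjusted p = 0.164) in RPMI-8226 cells. EZH2 fell by 1.10 (adjusted p = 0.00348) and EHMT2 by 0.32 (adjusted p = 0.0347) in MM.1S cells.

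The genes with patterns most like KLF2 were found by Pearson's r over the 16 arrays, each level taken minus the mean of its cell line, with 21370 probes kept in both lines as candidates. They were NDFIP1 (r = 0.949), RGS4 (0.944), C7orf44 (0.936), RPS27 (0.934) and ETNK1 (0.930). Their changes with GSK126+UNC0638 lay between -0.71 and -0.35 in RPMI-8226 and between -0.58 and -0.44 in MM.1S cells, smaller than those of KLF2. For KLF4 the named genes most like it were POLR3GL (r = 0.943), ATHL1 (0.936), LOC100506870 (0.933) and GAA (0.922), besides a transcript known only by its identifier. On the 8 RPMI-8226 arrays KLF4 was not above background, and these arrays are part of each of its r values. The arrays share treatments, so the values describe these arrays and carry no test.

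Both lines had the RNA of plasma cells, with 9 of 9 markers above background on all arrays. The mean level of that list, in multiples of the 75th percentile, lay between 21.8 and 37.7 over the single arrays of RPMI-8226 and between 43.5 and 64.2 over those of MM.1S cells. The ranges of the other marker lists are over arrays as well. Each mean takes different probes together, so its size is not compared between lists. Of the 9, 1 was called higher with GSK126+UNC0638 and 3 lower in RPMI-8226 cells, and 0 higher and 8 lower in MM.1S cells. SLAMF7, a surface receptor of plasma cells, rose by 4.89 in RPMI-8226 (adjusted p = 0.00138) and fell by 0.84 in MM.1S cells (adjusted p = 0.000709). TNFRSF17, the receptor BCMA, fell by 2.55 (adjusted p = 0.0141) and 0.56 (adjusted p = 0.00702), and SDC1, or CD138, by 0.84 (adjusted p = 0.0181) and 0.56 (adjusted p = 0.0161). Of the B cell markers, PAX5 and CD22 were above background on no array of either line, and MS4A1 was at least 17.2-fold higher in RPMI-8226 and at least 2.74-fold higher in MM.1S cells. T cell markers had a mean level of 0.379 to 3.73 in RPMI-8226 and of 0.0868 to 0.139 in MM.1S cells, and CD3D and CD3G rose by 4.99 and 5.79 and CD3E was at least 6.78-fold higher in RPMI-8226 cells, where CD8A changed by 0.02 (adjusted p = 0.934). CD3E was also at least 4.66-fold higher in MM.1S cells, where CD8A fell by 0.35 (adjusted p = 0.0162). Myeloid markers lay between 0.145 and 1.88 in RPMI-8226 and between 0.0435 and 0.0558 in MM.1S cells, and CD14 rose by 2.67 in RPMI-8226 cells. Epithelial markers lay between 22.3 and 31.9 and between 0.420 and 0.654, and EPCAM fell by 1.29 in RPMI-8226 cells (adjusted p = 0.0129) and was at least 4.37-fold lower in MM.1S cells, where KRT18 rose by 0.35 (adjusted p = 0.0410). Stromal markers lay between 0.0985 and 0.698 and between 0.00798 and 0.0281, with COL1A2 at least 3.19-fold higher in RPMI-8226 and DCN at least 1.19-fold higher in MM.1S cells. Endothelial markers lay between 0.102 and 0.376 and between 0.146 and 0.488, and PECAM1 rose by 0.79 in MM.1S cells (adjusted p = 0.00951). The part of these markers in the KLF values was not tested.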

How the data were processed

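Total RNA of 16 samples was labelled with Cy3 and hybridised to 1-colour arrays. The authors deposited each array as intensity values on a linear scale, with the background subtracted by Agilent Feature Extraction 10.7 per the labels. Their methods name Gene Spring GX, and the normalization and test they used for the arrays are not given in the sources used here. A value table of the whole series, also intensities deposited by the authors, was equal after its rounding for 1007574 of 1007616 values. Probe positions are on GRCh37 per the file headers.

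Of 62976 spots, 4259 controls were left out, and outlier spots (220 to 358 per array) were left out of probe means. The 75th percentile of an array's non-control spots (256 to 349 in RPMI-8226 and 431 to 477 in MM.1S arrays) was subtracted after log2. A probe was well above background where a share of 0.5 or more of its spots was. A fold against a group below background is a bound, set from the higher of the probe's signal and the lowest signal well above background on each array. limma (3.58.1, R 4.3.3; lmFit, eBayes, two-sided) was fitted per line to 8 arrays, or to all 16 between lines. P-values were adjusted by Benjamini-Hochberg with 0.05 as the limit. The number of arrays limits the precision.

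The factors, lists, tests and alternatives were chosen with earlier results of these data known. All 10 factors are named. Array values are printed for those called against DMSO in either line, and for KLF5 in both. For each list, up to 4 genes called with the combination in both lines, then in 1, are named by the size of change, each gene by its brightest probe. Same-numbered arrays deviated together in 6 of 6 pairs of groups in RPMI-8226 (r 0.254 to 0.415), so the numbers were taken to pair them there, and in 5 of 6 in MM.1S cells (0.0847 to 0.225), where they were not. In a test on simulated data with 200 probes changed by 1.5, limma recovered 58.5% over 23198 probes for the RPMI-8226 combination, with 10 false of 127 calls, and 80% over 25097 for MM.1S, with 14 false of 174. The simulated arrays did not deviate together, and far fewer probes were changed than were called in the data. These figures thus do not measure the tests above. Alternatives were other normalizations, filters and variance models, the series table, the replicate block, 1 fit over all arrays and each array left out. No slide block was fitted, as each line had 1 slide. Promoter sequences come from RefSeq. Some items are not reported here.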

Additional observations from a re-analysis of the deposited data

How the results depend on the processing

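In MM.1S cells the calls of KLF2 with UNC0638 and with GSK126+UNC0638, of KLF4 with GSK126+UNC0638 (1.58 to 3.18), of KLF9 with UNC0638 and of KLF16 with GSK126+UNC0638 held under each of the 13 alternatives run. The direction of KLF2 with GSK126 in RPMI-8226 cells turned from -0.61 to 0.011 without DMSO replicate 2 and was -1.23 without DMSO replicate 1. Counts of called probes changed as follows, and where no value shows a cause, the cause was not tested. The number of all probes called changed with the settings too, so no count is read as a change particular to the family. With the replicate block, RPMI-8226 cells had 1 call with UNC0638 instead of 0, 2 with GSK126+UNC0638 instead of 1, and 1 against GSK126 instead of 0, and the differences between the lines had 1 call with UNC0638 instead of 0 and 3 with GSK126+UNC0638 instead of 1, where KLF10 (-0.64) and KLF6 A_24_P128308, which was not kept in RPMI-8226 cells, joined KLF4. Over all probes, in RPMI-8226 cells the block called 1.81% with UNC0638, 20.5% with GSK126+UNC0638 and 5.5% against GSK126, instead of 0.634%, 12.4% and 2.55%. For the differences it called 5.42% with UNC0638 and 19.2% with GSK126+UNC0638, instead of 2.89% and 13.3%. For the differences between the lines the block pairs the arrays of both lines. The block gives no value for the lines in DMSO, since the replicates lie within a line. In MM.1S cells the numbers were not taken to pair the arrays. There the replicate block added KLF6 with UNC0638 (0.29, where 34.4% of all probes were called) and KLF10 with GSK126+UNC0638 (0.32, where 57.8% were). KLF6 with UNC0638 had a limma adjusted p of 0.0563 in the main fit. It was also called with quantile normalization (0.53, limma adjusted p = 0.0163), normexp (0.0403) and the percentile over detected probes (0.0300). A filter for all arrays (0.0438) and an intensity trend (0.0130) called it as well. With no filter on dim probes, which tests more probes, counts were 0 instead of 1 for RPMI-8226 with GSK126+UNC0638, 0 instead of 2 for MM.1S with GSK126, and 2 instead of 4 for MM.1S against GSK126. Calls over all probes then went from 2870 to 1638 for the first of these and from 1903 to 419 for the second. With 1 fit over all 16 arrays the family counts were 2 instead of 1 and 1 instead of 0 for RPMI-8226 with GSK126+UNC0638 and against UNC0638, and for MM.1S 1 instead of 2 with GSK126, 3 instead of 5 with GSK126+UNC0638 and 1 instead of 4 against GSK126. Calls over all probes went from 2870 to 6515 for RPMI-8226 with GSK126+UNC0638, and from 1903 to 850 for MM.1S with GSK126. An intensity trend gave 1 instead of 0 for RPMI-8226 against UNC0638 (KLF6, adjusted p = 0.0467). Normexp gave 2 instead of 0 for additivity in MM.1S and 1 instead of 0 for the UNC0638 difference (KLF9), and a filter for all arrays gave 0 instead of 1 for the GSK126+UNC0638 difference, as KLF4 is then not tested. With arrays left out in turn, counts were 0 to 1 for RPMI-8226 with GSK126+UNC0638 and MM.1S with GSK126, 4 to 5 for MM.1S with GSK126+UNC0638, 2 each time against GSK126 and 1 to 2 against UNC0638, 7 to 8 for the lines in DMSO, and 0 to 1, 0 to 1 and 1 to 2 for the differences with GSK126, UNC0638 and GSK126+UNC0638. The added calls were KLF16 without RPMI-8226 GSK126 replicate 2, KLF4 without RPMI-8226 DMSO replicate 1, and KLF6 without RPMI-8226 GSK126+UNC0638 replicate 2. The share of higher calls among all probes moved by over 10 points with the percentile over detected probes in MM.1S also with GSK126 (68.5% to 83.4%, and 54.9% with normexp), with UNC0638 (43.7% to 59.6%), against UNC0638 (44.8% to 73.6%) and against GSK126 (40.7% to 57.0%). Signal over background limits KLF4 and KLF6 A_24_P128308 in RPMI-8226 cells.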
